A study of Mus musculus with 8 samples.

Results

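Transcripts of the heat shock proteins and their J-domain cochaperones were measured by microarray in the striatum of male R6/2 and wild-type (WT) mice at 4 weeks of age, with 4 arrays per genotype. The genes were chosen by name. Every non-control probe whose gene name began with Hspa, Hspb, Hspd, Hspe, Hsph, Hsp90, Dnaja, Dnajb or Dnajc, or with Bag and a digit, was taken, together with Hsf1, Hsf2, Stip1, Chordc1 and Ahsa1. This gave 124 of the 55681 probes and 84 of the 24320 named genes on the array. Testing required a signal well above background on 4 or more of the 8 arrays, which 113 of these probes, from 77 of these genes, had. Each gene is described by the brightest of its tested probes.

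R6/2 mice carry exon 1 of human huntingtin with an expanded CAG repeat, under the human huntingtin promoter, and serve as a model of Huntington's disease. The labels give neither the repeat length nor the strain, and do not say whether each array held RNA of a separate animal. The p-values therefore measure the spread between arrays, and part of that spread may be technical. RNA came from whole striatal tissue, so fewer cells of a type and less RNA per cell cannot be told apart. All 8 arrays lay on 1 slide, with the WT arrays in row 1 and the R6/2 arrays in row 2, so genotype and slide row cannot be told apart.

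Heat shock proteins are molecular chaperones. Proteins of the HSP70 family bind unfolded stretches of other proteins and release them in a cycle driven by ATP. J-domain proteins, named DNAJA, DNAJB and DNAJC, deliver the substrates and trigger ATP hydrolysis, while HSP110 and BAG proteins exchange the nucleotide and so release the substrate. HSP90 and its cochaperones mature signalling proteins, HSP60 and HSP10 fold proteins inside mitochondria, and small heat shock proteins hold aggregating proteins without using ATP. The transcription factor HSF1 binds heat shock elements in the promoters of many of these genes during stress. Chaperones of several of these families reduce the aggregation of expanded polyglutamine in cell models, which is why they are followed in Huntington's disease.

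Heat shock elements are inverted repeats of the triplet GAA. They are shown here because they are the sites through which HSF1 acts on heat-inducible chaperone genes, and the choice of genes by name did not use them. A search for 3 alternating units was run with overlaps allowed: GAA, then TTC, then GAA, or TTC, then GAA, then TTC, with 2 bases of any kind between units. The forms are each other's reverse complement, so both strands were covered. The search was made in promoter windows of 300 bases, from 250 before to 50 after each RefSeq start (GRCm38.p6). Of the 84 genes, 68 had a window. The 16 without one, which were not searched, include Hspa8, Hspa9, Hspa13, Hsp90aa1, Hsp90ab1 and Hsf1. The element was found in 5 of the 68 (7.35%), against 0.662% of 27025 genes with windows. A looser form of 2 units was found in 17 of the 68 (25%) and in 17.0% of all genes with windows. The 5 genes with 3 units were Hspd1, Hspe1, Dnajb6, Hsph1 and Chordc1. Capitals mark the matched bases, including overlapping matches, and each sequence runs 5′ to 3′ on the strand of its gene. Hspe1 lies at chr1:55088014-55088118 (+), Dnajb6 at chr5:29735807-29735897 (+), Chordc1 at chr9:18292260-18292288 (+) and Hsph1 at chr5:149636287-149636303 (-).
Hspe1: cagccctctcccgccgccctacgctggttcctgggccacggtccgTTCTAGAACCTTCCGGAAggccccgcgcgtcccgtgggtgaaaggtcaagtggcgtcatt
Dnajb6: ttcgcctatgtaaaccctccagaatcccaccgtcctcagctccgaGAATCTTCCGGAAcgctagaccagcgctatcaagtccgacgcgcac
Chordc1: ccgGAACGTTCGGGAAAATTCCTGAAgca
Hsph1: agaTTCTGGAAAGTTCt
The match before Hspe1, 18 bases long, also falls in the window of Hspd1, which is transcribed from the opposite strand. The Chordc1 matches run across the annotated start, and the Hsph1 match lies wholly after it. A match describes letters in a window and is not a measured binding site.

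None of the 77 genes passed the test at an adjusted p under 0.05 (limma with Benjamini-Hochberg adjustment over all 35121 tested probes), while 1.94% of the 17665 tested genes did. At an unadjusted p under 0.05 there were 10 of 77 (13%), against 18.9% of all tested genes. The methods' t-test also called 0 of the 77. A single probe of the 113 was called, and it belonged to Bag5, whose other probe was not called. Among all tested probes 1.51% were called, 1.14% as lower in R6/2 and 0.367% as higher. With the replicate number as a block 0 of the 77 genes and 0 of the 113 probes were called, against 1.02% of all genes and 0.806% of all probes.

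Differences below are R6/2 minus WT on the log2 scale, each from 4 arrays per genotype. Over the 77 genes they had a median of 0.06 and ran from -0.35 to 0.78, and over all tested genes the median was 0.02. The differences were positive for 48 genes (62.3%) and negative for 29, and 53.8% of all tested genes were positive. When each array was centred on its median instead of scaled to its 75th percentile, 59 of the 77 were positive (76.6%), as were 67.9% of all tested genes. The 95% interval of the difference stayed within 1.5-fold in either direction for 70 of the 77 (90.9%), against 71.8% of all tested genes. Only 7 of the 77 differed by more than 0.3 (9.09%), against 19.2% of all genes.

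In simulated data with the same probes, 200 were changed by a known fold. Of the simulated 2-fold changes 62.7% were called, of the 1.5-fold changes 30.6%, and of the 1.25-fold changes 0%. The 0% is over 61 simulated probes. The simulated noise was independent between probes, and fewer probes were changed than the 529 called in the real data. The Benjamini-Hochberg cutoff depends on how many probes change. These rates therefore describe the simulated setting and do not give the sensitivity of the test on the real data.

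**Figure D1:**
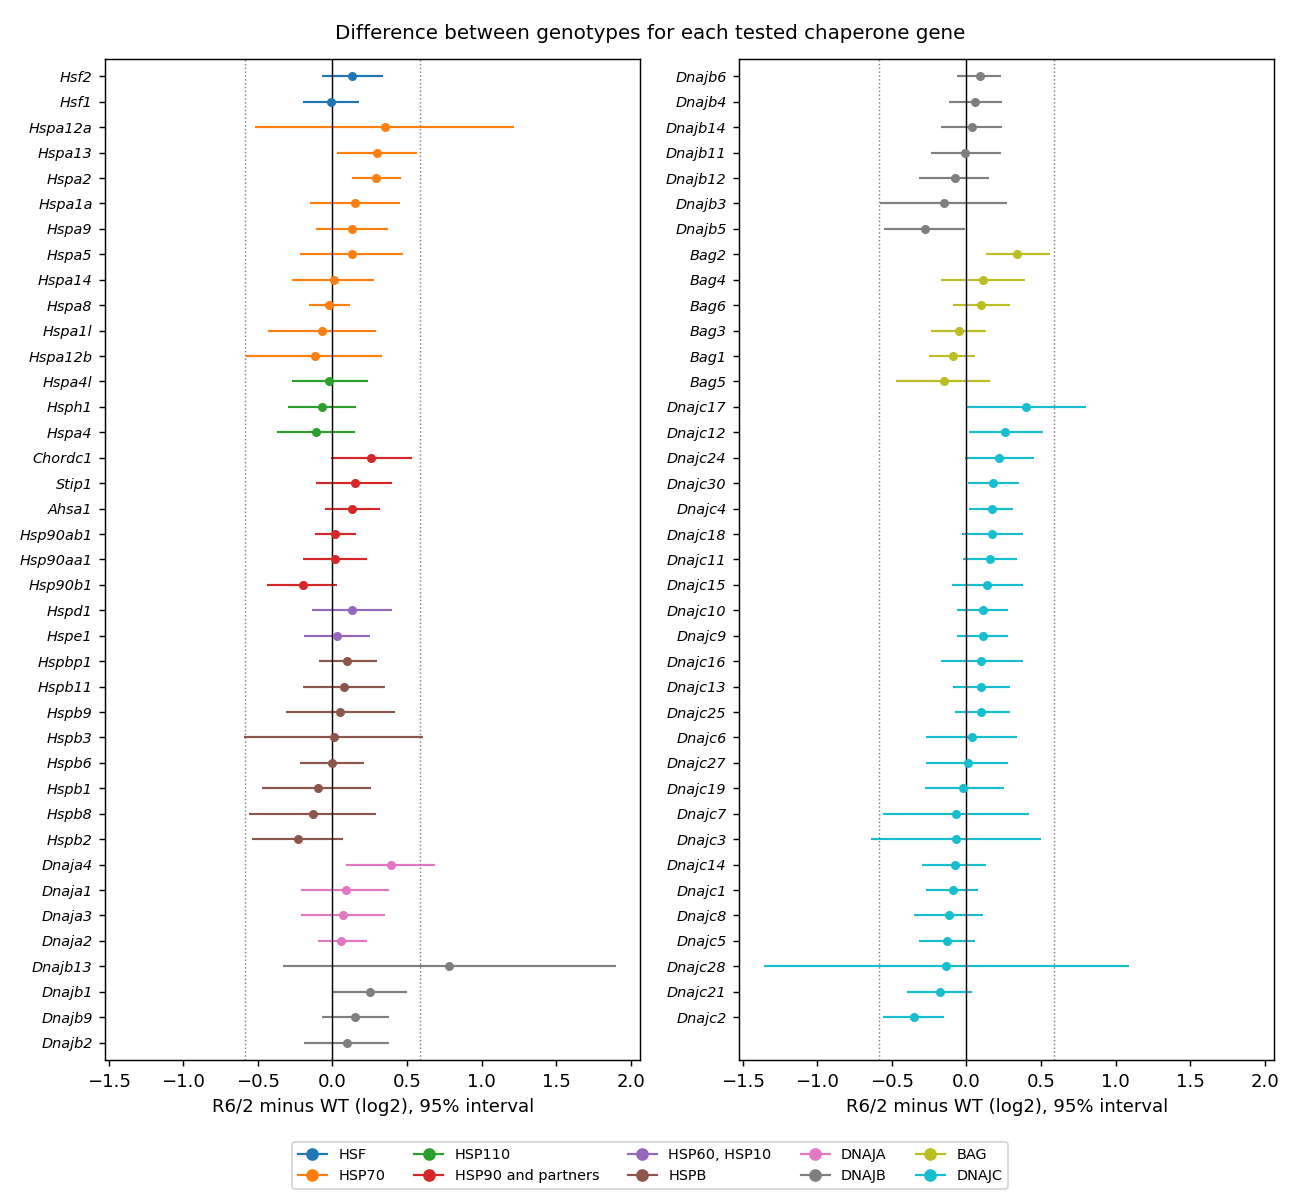
Log2 difference (R6/2 minus WT) of each of the 77 tested genes, with its 95% interval from limma, coloured by family; the solid line is 0 and the dotted lines mark 1.5-fold. For 70 genes the whole interval lies between the dotted lines, and the widest intervals belong to Dnajc28, Dnajb13 and Hspa12a.

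Within a genotype, pairs of arrays correlated at 0.983 to 0.992 over the tested probes. The share of probes well above background ran from 61.5% to 67.7% per array, and 0 spots were saturated. Of 10 markers of striatal projection neurons, such as Penk, 6 were called lower in R6/2 and 0 higher, with a median difference of -0.73. The mean centred level of that marker list lay between 0.25 and 0.47 on the WT arrays and between -0.70 and -0.15 on the R6/2 arrays. Its part in the chaperone values was not tested. Among all tested genes 260 were called lower and 83 higher, so 75.8% of calls were lower; with median centring 62.9% were.

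One WT array stood apart for the chaperones. WT 3 held the lowest WT value for 51 of the 77 genes (66.2%), against 43.5% of all tested genes. R6/2 3 held the lowest R6/2 value for 43 of the 77 (55.8%), against 33.9% of all genes. The mean centred level of the 77 genes was 0.02, -0.03, -0.13 and 0.03 on WT 1 to 4 and 0.04, 0.06, -0.05 and 0.06 on R6/2 1 to 4. WT 3 was also the array with the highest mean of 10 immediate early genes such as Fos and Arc, at 1.07, against -0.67 to 0.25 on the other WT arrays and -0.78 to 0.42 on the R6/2 arrays. The part of this array's sample in the differences was not tested by other means than leaving it out. Without WT 3 the median difference of the 77 genes was 0.03, with 44 positive, and 0 genes passed the test. Without R6/2 3 instead, the median was 0.08, with 52 positive. Over all fits with a single array left out, the number of positive genes ran from 44 (without WT 3) to 53 (without WT 4). Here and below, R6/2 3 was kept in the fits without WT 3. Only 1 of these low arrays was thus removed, which by itself lowers the difference of genes low on both. Within arrays of the same replicate number, the mean differences of the 77 genes were 0.02, 0.08, 0.08 and 0.04 for replicates 1 to 4.

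Neither heat shock transcription factor passed the test. Hsf1, the main activator of the heat shock response, read 1.18, 1.16, 1.12 and 1.23 on the WT arrays and 1.25, 1.22, 1.21 and 0.96 on the R6/2 arrays, in log2 units relative to each array's 75th percentile. The R6/2 4 array was the low one, R6/2 1 lay just above the WT range, and R6/2 2 and R6/2 3 lay near its top. The difference was -0.01 ± 0.08 (SE; adjusted p = 0.958). Hsf2, a related factor active in development, had a difference of 0.13 ± 0.09 (adjusted p = 0.501).

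Of the HSP70 family in the cytosol, Hspa2 showed the smallest p of all 77 genes in the fit without a block. Hspa2 encodes an HSP70 best known for its role in spermatogenesis and also expressed in brain. Its probe, at chr12:77507769-77507828 (+) on mm9, read 1.85, 1.95, 1.98 and 1.94 in WT and 2.09, 2.23, 2.28 and 2.28 in R6/2. All R6/2 arrays lay above all WT arrays. The difference was 0.29 ± 0.07, or 1.22-fold (95% interval 0.13 to 0.46), and the adjusted p of limma was 0.0895. The adjusted p lay between 0.0298 and 0.21 over 19 alternatives, and 2 of these, another background correction and a moderated test with a trend in the variance, called the gene. Without WT 3 the difference was 0.31. Taking the replicate number as a block, it was 0.29 ± 0.05 (adjusted p = 0.0789).

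Hspa8, the constitutive HSP70 that also uncoats clathrin vesicles, read 7.63, 7.66, 7.63 and 7.62 in WT and 7.55, 7.58, 7.68 and 7.64 in R6/2. The groups overlapped, with R6/2 1 and R6/2 2 below the WT range and R6/2 3 above it. The difference of Hspa8 was -0.02 ± 0.06, with a 95% interval from -0.16 to 0.12. Its other tested probes had differences of 0.13 and 0.21, with adjusted p of 0.493 and 0.413, and both were lowest on WT 3. Hspa1a, the HSP70 most strongly induced by heat, was above background on all 8 arrays, and read -2.99, -2.94, -3.23 and -3.21 in WT and -3.07, -2.65, -3.18 and -2.86 in R6/2. Its difference of 0.15 ± 0.13 was within the spread between arrays (adjusted p = 0.609). Hspa1a has a nearly identical copy, Hspa1b, for which no probe was named, so signal of the 2 genes cannot be told apart. The probe lies at chr17:35107117-35107176 (-) on mm9 and is shown because it may also read that copy, which was not tested.
Hspa1a probe: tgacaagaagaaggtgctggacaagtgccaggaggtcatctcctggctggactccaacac
The testis-type HSP70 gene Hspa1l was well above background on 2 WT and 3 R6/2 arrays, with a difference of -0.07.

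The HSP70s of the organelles had positive differences, none of which passed the test. Hspa13, a microsomal member of the family, read 1.39, 1.43, 0.96 and 1.40 in WT and 1.67, 1.59, 1.46 and 1.65 in R6/2, and the groups did not overlap. WT 3 lay 0.43 or more below the other WT arrays. The difference was 0.30 ± 0.12 (adjusted p = 0.248) with all arrays and 0.19 without WT 3, and a dimmer second probe had 0.01. Hspa5, the main HSP70 of the endoplasmic reticulum (BiP), read 5.19, 5.21, 4.81 and 5.16 in WT and 5.45, 5.42, 4.89 and 5.11 in R6/2. Its groups overlapped and the difference was 0.13 ± 0.15 (adjusted p = 0.718). Hspa9, the mitochondrial HSP70, had a difference of 0.13 ± 0.11 (adjusted p = 0.584). For both genes WT 3 was the lowest of the 8 arrays, and without it both differences were 0.03. The median of the 3 organelle genes was 0.13 with WT 3 and 0.03 without.

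Among the distant relatives of HSP70, the neuronal gene Hspa12a varied more between arrays than between genotypes. Its values were -0.66, -0.15, -1.29 and -0.13 in WT and 0.33, -1.05, -0.47 and 0.37 in R6/2, with a difference of 0.35 ± 0.38, or 0.11 without WT 3. Hspa12b differed by -0.12, or 0.02 without WT 3, and Hspa14 by 0.01. The nucleotide exchange factors of the HSP110 family, Hsph1, Hspa4 and Hspa4l, had differences of -0.07, -0.11 and -0.02. All were negative on the brightest probe, but after median centring 2 of the 3 were positive. Hspa4 had further probes with differences of 0.10 and -0.09, and its brightest probe gave -0.19 without WT 3. Hsph1, a heat-inducible gene, had an adjusted p of 0.782.

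No HSP90 gene passed the test, and the differences of the cytosolic forms were close to 0. Hsp90ab1, the constitutive cytosolic form, read 7.21, 7.26, 7.18 and 7.20 in WT and 7.23, 7.30, 7.22 and 7.20 in R6/2. Its difference was 0.02 ± 0.06, with a 95% interval from -0.12 to 0.16. Hsp90aa1, the inducible form, differed by 0.02 ± 0.09. Hsp90b1, the form of the endoplasmic reticulum (GRP94), read 5.39, 5.04, 5.06 and 5.31 in WT and 5.13, 5.02, 4.91 and 4.92 in R6/2. Its difference was -0.20 ± 0.10 (adjusted p = 0.364), opposite in sign to that of Hspa5.

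The 3 HSP90 cochaperones taken by name, Chordc1, Stip1 and Ahsa1, had positive differences. Chordc1, which is heat-inducible and carries the longest element among the sequences shown, read 1.92, 1.84, 1.5 and 1.91 in WT and 2.08, 2.20, 1.88 and 2.05 in R6/2. R6/2 3 lay inside the WT range and the other R6/2 arrays lay above it. The difference was 0.26 ± 0.12 (adjusted p = 0.308), and 0.16 without WT 3, the lowest array. Taking the replicate number as a block, it was 0.26 ± 0.07 (adjusted p = 0.141). Stip1, which links HSP70 to HSP90, differed by 0.15 ± 0.11, and Ahsa1, which stimulates the ATPase of HSP90, by 0.13 ± 0.08. For these genes the adjusted p was 0.547 and 0.45, and WT 3 was again the lowest array of both. Without it the differences were 0.06 and 0.08.

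The mitochondrial chaperonin pair, Hspd1 (HSP60) and Hspe1 (HSP10), is transcribed from a shared promoter. Hspd1 read 4.60, 4.45, 4.12 and 4.52 in WT and 4.63, 4.61, 4.39 and 4.58 in R6/2, a difference of 0.13 ± 0.12 (adjusted p = 0.62). For Hspe1 the difference was 0.03 ± 0.10, and its 3 probes lay between 0.01 and 0.04. The WT 3 array was lowest for both genes, and without it the differences were 0.03 and -0.04.

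Of the 8 genes named Hspb and a number, 7 were tested, with 3 positive and 4 negative differences and a median of 0. Hspb1 (HSP25 in mouse), an actin-stabilising small heat shock protein, read 2.20, 2.17, 2.87 and 2.50 in WT and 2.45, 2.36, 2.36 and 2.15 in R6/2. Hspb8, which works with Bag3 in selective autophagy, read 0.10, -0.07, 0.81 and 0.20 in WT and 0.22, 0.13, 0.24 and -0.09 in R6/2. WT 3 was the highest array for both, the opposite of its place for most chaperones. The mean centred level of 8 endothelial and mural markers was also highest on WT 3, at 0.24, and lay between -0.17 and 0.15 on the other arrays. That of 8 microglial markers was highest on WT 3 as well, at 0.28, and lay between -0.15 and 0.15 on the others. Not every microglial marker was high there, and P2ry12 had its lowest value on WT 3, at 0.12. The mean of 8 astrocyte markers was highest on WT 4, at 0.15, and was 0.05 on WT 3. The part of these marker lists in the Hspb1 and Hspb8 values was not tested. The differences were -0.10 ± 0.16 for Hspb1 and -0.13 ± 0.19 for Hspb8, with adjusted p of 0.788 and 0.759. Without WT 3 both turned positive, at 0.04 and 0.05.

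Hspb2, a small heat shock protein gene best known from muscle, differed by -0.23 ± 0.13 (adjusted p = 0.422), with WT between -1.84 and -1.48 and R6/2 between -2.15 and -1.60. Of 8 markers of skeletal muscle 5 were tested, 4 of them negative, and 0 were called, with a median of -0.75. With normexp background correction that median was -0.23. Their mean centred level lay between -0.09 and 0.72 on the WT arrays and between -0.53 and 0.13 on the R6/2 arrays. WT 2 had the highest marker level, 0.72, and the lowest WT value of Hspb2, -1.84. The part of these markers in the Hspb2 value was not tested. Hspb6 (HSP20) differed by 0.00 ± 0.09. The closely related lens and glial gene Cryab, outside the name rule, differed by 0.10 ± 0.12, or 0.03 without WT 3. Hspb11, which bears the name but is a component of intraflagellar transport, differed by 0.08. Hspbp1, an HSP70 nucleotide exchange factor, differed by 0.10, or 0.05 without WT 3.

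The DNAJA cochaperones are the closest relatives of the bacterial J protein. All 4 had positive differences, with a median of 0.08, and none passed the test. Without WT 3 the median was 0.01 and 2 of the 4 were positive. Dnaja4 read 2.66, 2.61, 2.38 and 2.86 in WT and 3.19, 3.16, 2.97 and 2.76 in R6/2. R6/2 4 fell inside the WT range and the other R6/2 arrays lay above it. The difference was 0.39 ± 0.13 (adjusted p = 0.188), or 0.31 without WT 3, and the second probe gave 0.24. Dnaja1, a partner of Hspa8, read 5.04, 5.06, 4.62 and 4.99 in WT and 5.15, 5.16, 4.82 and 4.93 in R6/2, a difference of 0.09 ± 0.13, or -0.02 without WT 3.

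Among the DNAJB genes 11 of 13 were tested, and 7 of the 11 differences were positive. Dnajb1 (HSP40), the main heat-inducible J protein, read 4.11, 4.14, 3.75 and 4.01 in WT and 4.26, 4.39, 4.09 and 4.26 in R6/2. The R6/2 3 array overlapped the WT arrays. The difference was 0.25 ± 0.11 (adjusted p = 0.287), and 0.17 without WT 3. Taking the replicate number as a block, it was 0.25 ± 0.06 (adjusted p = 0.113). Dnajb5 went the other way, with 3.79, 3.96, 3.58 and 3.69 in WT and 3.56, 3.69, 3.33 and 3.32 in R6/2. Its difference was -0.28 ± 0.12 (adjusted p = 0.284), the groups overlapped, and a second probe, above background on 2 arrays of each genotype, gave -0.59 ± 1.07. A fit with the replicate number as a block gave -0.28 ± 0.06 for the first probe (adjusted p = 0.0899).

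Dnajb6 and Dnajb2 encode J proteins known for holding back polyglutamine aggregation, and neither passed the test. Dnajb6 read 2.45, 2.57, 2.51 and 2.51 in WT and 2.61, 2.67, 2.55 and 2.57 in R6/2, with differences between 0.03 and 0.10 over its 4 probes. The adjusted p of its brightest probe was 0.536. Dnajb2, a neuronal J protein, read 2.43, 2.43, 2.39 and 2.62 in WT and 2.21, 2.74, 2.65 and 2.65 in R6/2. It differed by 0.10 ± 0.12, with the R6/2 1 array below all others. Dnajb9, of the endoplasmic reticulum, differed by 0.15 ± 0.10 (adjusted p = 0.463), or 0.09 without WT 3.

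The largest fitted difference of all 77 genes, 0.78 ± 0.48 for Dnajb13, came from a dim probe. With normexp background correction it was 0.08, and over the alternatives it ran up to 1.12. Dnajb13 is an axonemal protein of sperm and motile cilia. Its probe was well above background on 1 WT and 3 R6/2 arrays, and read -5.19, -7.34, -4.82 and -6.01 in WT and -5.05, -5.10, -5.16 and -4.91 in R6/2. WT 2 was far below the rest, and the R6/2 values lay inside the WT range. Over 8 markers of motile cilia the mean centred level ran from -0.54 to 0.31 on the WT arrays and from -0.27 to 0.61 on the R6/2 arrays, with WT 2 the lowest; its part in the Dnajb13 value was not tested. Dnajb3, a testis gene, differed by -0.15 ± 0.19, or -0.31 without WT 3. Dnajb7 and Dnajb8 were above background on at most 1 array and were not tested.

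Of the 28 DNAJC genes 25 were tested, with 15 positive and 10 negative differences and a median of 0.10. The lowest difference of all 77 genes was that of Dnajc2 (zuotin), a J protein of the ribosome that assists nascent chains. Its probe, at chr5:21272454-21272513 (-) on mm9, is shown because a second probe of the gene gave another answer.
Dnajc2 probe: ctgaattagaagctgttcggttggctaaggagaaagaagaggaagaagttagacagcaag
This probe read 0.81, 0.93, 0.67 and 0.68 in WT and 0.40, 0.56, 0.42 and 0.30 in R6/2, so that every R6/2 array lay below every WT array. The difference was -0.35 ± 0.09, or 1.28-fold lower (95% interval -0.56 to -0.15; adjusted p = 0.0993), and -0.39 without WT 3. Taking the replicate number as a block, it was -0.35 ± 0.06 (adjusted p = 0.0702), the smallest p of the 77 genes in that fit. The second probe read -4.66, -4.23, -4.38 and -5.62 in WT and -4.19, -4.91, -4.89 and -4.77 in R6/2. It was near background, overlapped between the genotypes and differed by 0.03 ± 0.31. Dnajc2 was the single gene of the 26 with several tested probes whose probes differed in sign and by over 0.3.

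A few other DNAJC genes had groups that did not overlap. Dnajc4 read 1.62, 1.51, 1.48 and 1.57 in WT and 1.74, 1.71, 1.65 and 1.75 in R6/2, a difference of 0.17 ± 0.06 (adjusted p = 0.243). Dnajc30, a mitochondrial J protein, read 2.60, 2.65, 2.51 and 2.68 in WT and 2.76, 2.72, 2.78 and 2.92 in R6/2, a difference of 0.18 ± 0.07 (adjusted p = 0.257). In both genes the gap between the genotypes was 0.04 or less, and the R6/2 arrays were the higher. Dnajc21, which acts in ribosome biogenesis, was lower on every R6/2 array, at -0.84, -0.76, -1.10 and -0.77 against -0.56, -0.73, -0.73 and -0.72 in WT. Its difference was -0.18 ± 0.10 (adjusted p = 0.376), and its other probes gave -0.24 and -0.30.

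In all, 7 of the 77 genes had groups that did not overlap (9.09%), against 14.4% of all tested genes, of which 6.77% were lower and 7.63% higher in R6/2. These were Hspa2, Bag2, Dnajc4, Hspa13 and Dnajc30, which were higher in R6/2, and Dnajc2 and Dnajc21, which were lower. Without WT 3 there were 10 (13%), against 20.9% of all genes.

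The remaining DNAJC genes of smallest p were positive. Dnajc12, a cochaperone of the aromatic amino acid hydroxylases, differed by 0.26 ± 0.11, with WT between 1.15 and 1.55 and R6/2 between 1.47 and 1.76. Taking the replicate number as a block, it differed by 0.26 ± 0.06 (adjusted p = 0.114). Dnajc17, a nuclear J protein, differed by 0.40 ± 0.17, with WT between -0.94 and -0.22 and R6/2 between -0.48 and -0.02. Dnajc24, which takes part in diphthamide synthesis, differed by 0.22 ± 0.10, Dnajc18 by 0.17 ± 0.09 and Dnajc11, of the mitochondrial cristae complex, by 0.16 ± 0.08. Without a block their adjusted p lay between 0.259 and 0.361. In all of these except Dnajc17, WT 3 was the lowest array.

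The synaptic and endocytic J proteins did not pass the test either. Dnajc5 (CSPα), the J protein of synaptic vesicles, read 7.02, 7.26, 7.27 and 7.08 in WT and 6.95, 7.03, 7.12 and 7.01 in R6/2. Its difference was -0.13 ± 0.08 (adjusted p = 0.477), and its other 3 probes were positive, up to 0.17. Dnajc6 (auxilin), which recruits Hspa8 to clathrin coats, differed by 0.04 ± 0.13, and Dnajc13, of endosomes, by 0.10 ± 0.08, or 0.05 without WT 3. Dnajc7, a partner of both HSP70 and HSP90, read 4.13, 4.85, 4.82 and 4.55 in WT and 3.99, 4.72, 4.68 and 4.68 in R6/2, a difference of -0.07 ± 0.21. Replicate 1 was the low array of both genotypes. Dnajc3, an inhibitor of the kinase PERK, differed by -0.07 ± 0.25, and Dnajc28 by -0.14 ± 0.53, with arrays from -4.38 to -2.13, and by 0.07 without WT 3.

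The only call was in the BAG family. Bag5, which binds HSP70 and is known as an inhibitor of the ubiquitin ligases parkin and CHIP, had 2 probes lying 363 bases apart in its transcript. The called probe, at chr12:112947706-112947765 (-) on mm9, read 2.13, 2.16, 2.05 and 2.23 in WT and 1.75, 1.69, 1.71 and 1.73 in R6/2. The R6/2 arrays lay close together and all 0.30 or more below the lowest WT array. The difference was -0.42 ± 0.06, or 1.34-fold lower (95% interval -0.57 to -0.27; adjusted p = 0.0287). With the replicate number as a block the adjusted p was 0.0595. The other, brighter probe, at chr12:112948069-112948128 (-), read 2.81, 2.80, 2.30 and 2.66 in WT and 2.66, 2.54, 2.26 and 2.49 in R6/2. Its groups overlapped, with a difference of -0.15 ± 0.14 (adjusted p = 0.618). Without WT 3, its lowest WT array, the difference was -0.27 (adjusted p = 0.254), against -0.45 for the called probe.

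Both Bag5 probes thus had lower means in R6/2, and the size and the call differed between them. In the authors' deposited table the called probe was 1.33-fold down with an adjusted p of 0.0397. It was the only one of the 124 probes under 0.05 in that table, in which 144 of the 55681 probes were. The call was lost with median centring (adjusted p = 0.111), without the filter on dim probes (0.0812), and when any array other than WT 3 was left out (0.0631 to 0.0976). The difference itself lay between -0.45 and -0.34 over all alternatives.

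Bag2, an inhibitor of CHIP, had the largest positive difference of the family. It read -1.59, -1.83, -1.70 and -1.57 in WT and -1.49, -1.37, -1.27 and -1.20 in R6/2. All R6/2 arrays lay above all WT arrays. The difference was 0.34 ± 0.09, or 1.27-fold (adjusted p = 0.117), and 0.33 without WT 3. Bag3, the heat-inducible partner of Hspb8, read 0.28, 0.12, 0.40 and 0.18 in WT and 0.24, 0.24, 0.19 and 0.10 in R6/2, a difference of -0.05 ± 0.08 (adjusted p = 0.783). Bag1, which links HSP70 to the proteasome, differed by -0.09 ± 0.07 and Bag6, which guides tail-anchored and misfolded proteins, by 0.10 ± 0.08.

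**Figure D2:**
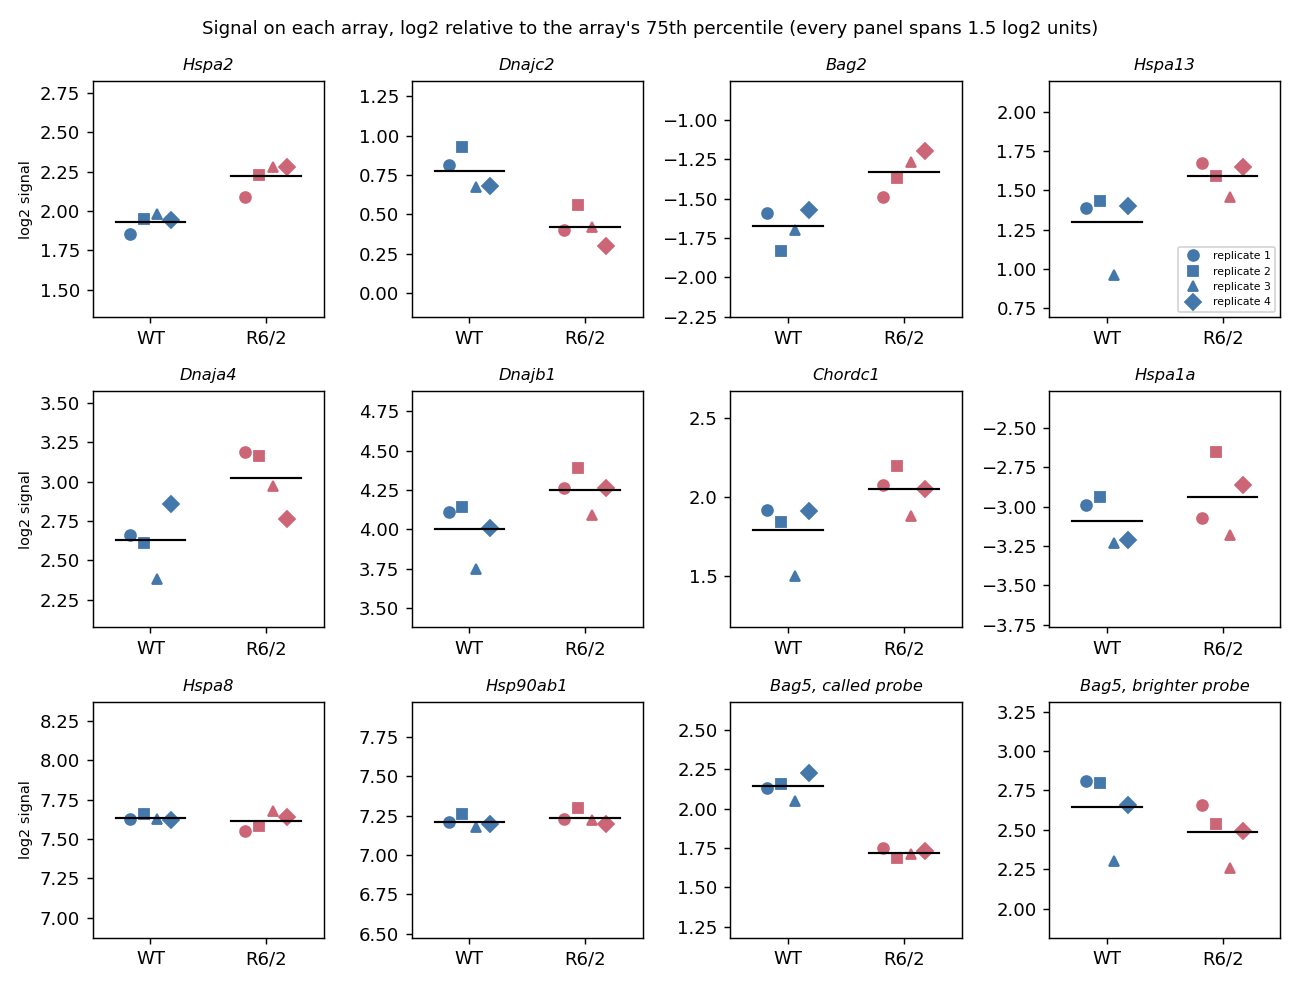
Log2 signal relative to the array's 75th percentile on each array, for 10 genes and for both probes of Bag5; symbols mark replicates 1 to 4, black lines are means of 4 arrays, and every panel spans 1.5 log2 units. The called Bag5 probe separates the genotypes (R6/2 1.69 to 1.75, WT 2.05 to 2.23), Hspa2, Dnajc2, Bag2 and Hspa13 separate without passing the test, and Hspa8 and Hsp90ab1 overlap.

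Grouped by cell compartment or regulation, no list of chaperones held a called gene. Of 20 tested genes known to be heat-inducible, 14 were positive, with a median of 0.05 and a range from -0.13 to 0.26. Without WT 3 the median was 0.03 and 12 were positive. The 5 genes with the heat shock element of 3 units had a median of 0.09, from -0.07 for Hsph1 to 0.26 for Chordc1. The 16 tested genes with 2 or more units, which include these 5, had a median of 0.04, and the 47 with windows but no match of 2 units had a median of 0.06. Of 16 chaperones of the endoplasmic reticulum, 11 were positive, with a median of 0.08, or 9 with a median of 0.04 without WT 3. Outside the name rule that list's smallest p were those of Calr (calreticulin), with a difference of 0.12 ± 0.07, and Pdia4, a disulfide isomerase, with 0.17 ± 0.10.

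Mitochondrial chaperones were positive for 11 of 12 genes, with a median of 0.13. The cytosolic chaperonin CCT and its partner prefoldin, outside the name rule, were positive for 13 of 14, with a median of 0.15. On WT 3 the mean centred level of these lists was -0.29 and -0.31, and on the other arrays it lay between -0.06 and 0.13 and between -0.07 and 0.12. Without WT 3 the medians were 0.05 and 0.08, with 9 of 12 and 10 of 14 positive. R6/2 3 was the lowest R6/2 array for both lists, and leaving out WT 3 removes only 1 array of that pair. Within pairs of arrays of the same replicate number, the mean differences over replicates 1 to 4 were 0.06, 0.09, 0.23 and 0.09 for the mitochondrial list and 0.00, 0.17, 0.28 and 0.09 for the CCT list. For the 77 genes they were 0.02, 0.08, 0.08 and 0.04, and for all tested genes they lay between -0.03 and -0.01. The smallest p of the CCT list were those of Vbp1, a prefoldin subunit, at 0.25 ± 0.10, and Cct6a at 0.24 ± 0.10, with adjusted p of 0.274 and 0.282. Without WT 3 they were 0.16 and 0.15. Trap1, the mitochondrial HSP90, differed by 0.19 ± 0.14, or 0.09 without WT 3, and Clpb, a mitochondrial disaggregase, by 0.15 ± 0.08.

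Another list of 25 genes outside the name rule, mostly cochaperones, was tested, and 19 were positive, with a median of 0.08. It also holds the transcription factors Hsf4 and Hsf5 and the small heat shock protein gene Cryab, all positive. Cryab, Fkbp4 and Cacybp are in the heat-inducible list as well. The lowest difference was that of Sgtb, a brain-enriched cochaperone of HSP70, which read 2.09, 2.12, 2.11 and 2.22 in WT and 1.75, 1.84, 1.49 and 1.80 in R6/2. Its groups did not overlap, and the difference of -0.41 ± 0.09 had an adjusted p of 0.0717. Tomm70a, the mitochondrial import receptor that docks HSP70 and HSP90, differed by -0.28 ± 0.11 (adjusted p = 0.256), and Fkbp4, an immunophilin of HSP90, by 0.21 ± 0.11 (adjusted p = 0.379).

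**Figure D3:**
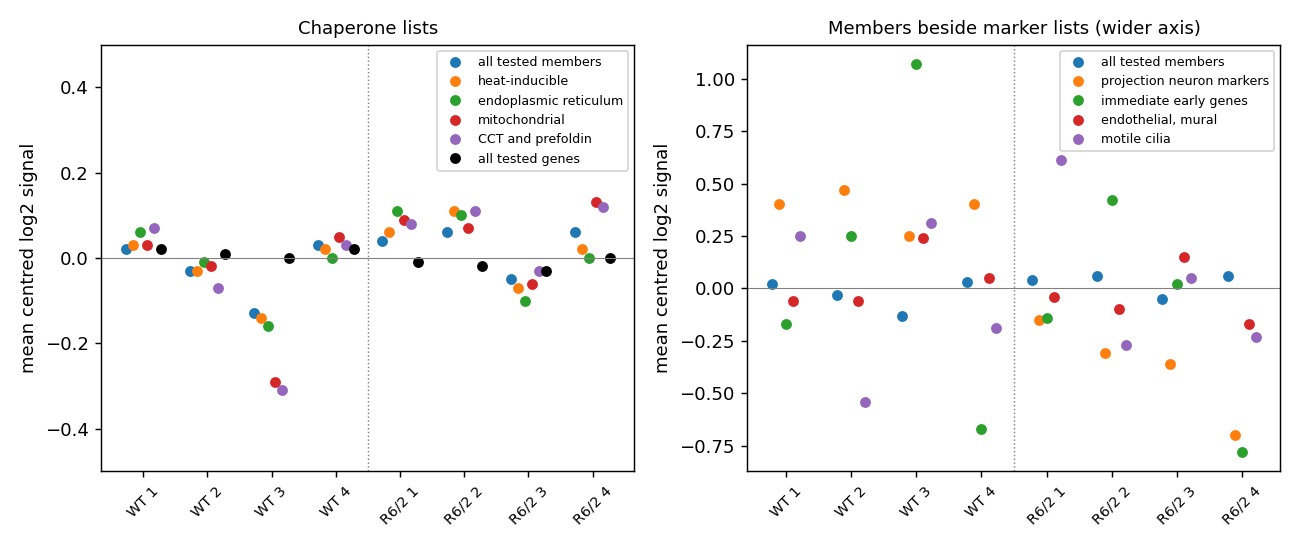
Mean centred log2 signal of gene lists on each array, where each gene was centred on its mean over 8 arrays; the left panel shows chaperone lists and all tested genes, the right panel the 77 genes beside marker lists on a wider axis. WT 3 is the lowest array for the mitochondrial (-0.29) and CCT (-0.31) lists and the highest for immediate early genes (1.07), and projection neuron markers are lower on every R6/2 array.

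The 7 genes that were not tested were Dnajb7, Dnajb8, Dnajc22, Dnajc5b, Dnajc5g, Hspb7 and Hspbap1. None of their probes was well above background on more than 1 array, so differences between the genotypes were not detectable for them at this signal. For the 26 genes with several tested probes, all probes had the same sign in 18 and differed in sign in 8, and the median spread between a gene's highest and lowest probe was 0.12.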

How the data were processed

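Striatal RNA of 8 samples was hybridised to 1-colour arrays. Per the file headers, the deposited intensity values came from Agilent Feature Extraction 10.7.3.1, whose processed signal was background-corrected and detrended by the authors' scanner software, with surrogate values near background. The authors also deposited log2 values, p-values of an unpaired t-test and unsigned fold changes in 1 table, per the file headers.

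Here, log2 processed signal was scaled to each array's 75th percentile over non-control spots; outlier spots were left out and spots of a probe averaged. Of 55681 probes, 26769 were named by transcript accession and 5049 by gene number (RefSeq table, GRCm38.p6), 1861 kept the scanner file's symbol and 22002 had none. Probe positions are those of the files, on mm9. Genotypes were compared with lmFit and eBayes (limma 3.58.1, R 4.3.3), with Benjamini-Hochberg adjustment over all 35121 tested probes and calls at 0.05. A gene took its brightest tested probe. Errors are SE from limma.

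Replicate numbers of the labels are also slide columns. Same-numbered arrays deviated together (correlations 0.22, 0.18, 0.36 and 0.13). The numbers were taken as pairing the samples in the blocked fit, which is an alternative. The main fit has no such term, so its SE, intervals and p ignore this shared deviation. With the block the SE fell from 0.21 to 0.07 for Dnajc7 and from 0.12 to 0.08 for Hspa13. For Dnajc17 it rose from 0.17 to 0.20. The blocked fit is printed where it changed a call and for Hspa2, Dnajc2, Dnajb5, Dnajb1, Dnajc12 and Chordc1. Other SE and p of the named genes are from limma without the block unless stated. The block lowered the p of some genes and raised that of others, such as Dnaja4 (adjusted p 0.188 without and 0.199 with it). Without a block, 343 genes were called and with it 181.

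The genes and lists were chosen with earlier results of these data known. The text names called genes, those of largest difference or smallest p, discordant probes and a list of well-known chaperones, and, of each list outside the name rule, the 2 of smallest p. The number of arrays limits the precision. The fit was checked on simulated data in which 200 probes were changed.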

Additional observations from a re-analysis of the deposited data

Results flagged for a closer look

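Among the named genes, each genotype's 4 arrays were checked for 1 array standing apart, by the gap to its nearest neighbour as a share of the range (Dixon's criterion). Of 124 groups checked, 11 had such an array, where chance alone gives about 1 in 20. WT 3 was the low array for Hspa13 (0.96, others 1.39 to 1.43), Hspa5 (4.81, others 5.16 to 5.21), Hspa9 (2.88, others 3.24 to 3.31), Hsp90aa1 (5.78, others 5.97 to 6.00), Dnaja1 (4.62, others 4.99 to 5.06) and Cct6a (0.41, others 0.76 to 0.79). Without WT 3 the differences, R6/2 minus WT, moved from 0.30 to 0.19 for Hspa13, from 0.13 to 0.03 for Hspa5 and Hspa9, from 0.02 to -0.04 for Hsp90aa1, from 0.09 to -0.02 for Dnaja1 and from 0.24 to 0.15 for Cct6a.

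Other arrays stood apart for 4 genes. WT 1 was high for Dnajc21 (-0.56, others -0.73 to -0.72), and R6/2 4 was low for Hsf1 (0.96, others 1.21 to 1.25). For Dnajb2, WT 4 was high (2.62, others 2.39 to 2.43) and R6/2 1 was low (2.21, others 2.65 to 2.74). R6/2 1 was also low for Dnajc7 (3.99, others 4.68 to 4.72), for which WT 1, at 4.13, was the lowest WT array as well.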

How the results depend on the processing

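Of the 84 genes, 0 or 1 was called under every alternative. The 1 was Hspa2, called with normexp background correction (adjusted p = 0.0298) and with a variance trend and robust moderation (0.0474). The same settings called 2 of the probes (Hspa2 and Bag5) and the outside gene Sgtb (0.0426 and 0.0368). Median centring, no filter on dim probes and the replicate block called 0 of the probes, and leaving out single arrays 0 to 1. The replicate block changed no other call among the named genes. It moved the members with an unadjusted p under 0.05 from 10 to 13 of 77 (16.9%), against 24.5% of all genes. The median difference of the 77 genes was 0.14 with median centring, where that of all genes was 0.10, and 0.03 to 0.09 with single arrays left out. Sign changes among named genes occurred in 41 fits, all of uncalled genes; 1121 other fits kept direction and call, and 0 calls reversed.

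The count of all called genes (343) was 655 with normexp, 151 with median centring, 82 without a filter, 181 with the replicate block, 691 with array weights, 177 by the methods' t-test, 686 with trend and robust moderation, 540 with probe means, and 79 to 328 with single arrays left out. Called probes (529) were, in that order without probe means, 981, 228, 110, 283, 1114, 264, 1024 and 100 to 505. The causes were not tested. Quantile normalization, the stricter filter and the authors' log2 values gave counts within 1.5 times. A slide block could not be fitted, since all arrays share 1 slide and scan and each slide row holds 1 genotype. Genes at the floor of signal, such as Dnajb13, have poorly measured differences.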
